A study of Mus musculus with 2 samples.

Results

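The 5 NF-κB subunits and 5 of the IκB proteins that hold or assist them were followed in RNA-seq counts of control and RV-Cre-transduced Th17 cells. The genes were taken by symbol, *Rela*, *Rel*, *Relb*, *Nfkb1* and *Nfkb2* for the subunits and *Nfkbia*, *Nfkbib*, *Nfkbie*, *Nfkbiz* and *Bcl3* for the IκB proteins, and all 10 had a row among the 23282 gene rows. The study asked whether FAK (focal adhesion kinase) acts on NF-κB in Th17 cells, and the comparison asks how transcripts of the family differed between the libraries. Both groups were naïve CD4 T cells from the spleen of *Fak* fl/fl mice. The methods give the donors of naïve cells as female and 6 to 8 weeks old, and how many mice were pooled is not stated in the sources used here. The cells received anti-CD3ε bound to the plate at 10 μg/ml and soluble anti-CD28 at 5 μg/ml. For 3 days they were cultured with IL-6 (50 ng/ml), TGFβ1 (1 ng/ml), TNF-alpha (1 ng/ml), IL-1beta (2 ng/ml) and antibodies to IFNγ and IL-4 (5 μg/ml each). The control cells carried a control retrovirus, and the RV-Cre cells carried a retrovirus expressing Cre recombinase, which deletes the floxed part of *Fak*. The genotype label of the control sample reads WT, while its title names floxed cells with the control virus. Transduced cells were sorted by GFP, and 1 library was made per group. No difference could thus be set against a spread between replicates, and no p-values were computed. Cre expression and loss of *Fak* came together in the RV-Cre library and cannot be told apart.

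NF-κB acts as a dimer of Rel proteins. RelA, c-Rel (*Rel*) and RelB carry a transactivation domain, whereas p50 and p52 are processed from the longer precursors p105 (*Nfkb1*) and p100 (*Nfkb2*). In a resting T cell the dimers are held in the cytosol by the classical proteins IκBα, IκBβ and IκBε. Antigen receptor, TNF and IL-1 signals activate the IκB kinase complex, which marks these proteins for degradation and frees mainly RelA:p50 and c-Rel:p50, the canonical route. In the noncanonical route the kinase NIK leads to processing of p100 and the release of RelB:p52. IκBζ (*Nfkbiz*) and BCL3 are nuclear members that bind p50 or p52 dimers and modify transcription, and IκBζ is known as a factor of Th17 cells. Several genes of the family are themselves known NF-κB targets.

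For that reason the promoters of the family were searched for the κB consensus, the 10-base sequence that NF-κB dimers bind, in the 250 bases before each RefSeq start site, on both strands. The set of RefSeq (GRCm38.p6) promoters used here held an entry for 7 of the 10 genes, and none for *Relb*, *Nfkb1* and *Nfkbiz*. A match was found for 4 of the 7, *Rel*, *Nfkbia*, *Nfkbie* and *Nfkb2*, and not for *Rela*, *Nfkbib* or *Bcl3*. Counted by start site, since a gene can have several, 7.25% of all 32851 promoters of the same length held a match, and 6 of the 9 promoters of these genes did, 3 of them of *Nfkb2*. For each of the 4 genes 1 stretch is shown, since κB sequences are the letters by which NF-κB is known to act on a gene. They run 5′ to 3′ on the gene's strand, and capitals mark the κB match, which in *Rel* and *Nfkb2* is made of overlapping matches.

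Nfkbia: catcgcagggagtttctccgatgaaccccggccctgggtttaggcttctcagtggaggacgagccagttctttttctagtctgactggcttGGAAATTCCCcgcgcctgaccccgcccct
Nfkbie: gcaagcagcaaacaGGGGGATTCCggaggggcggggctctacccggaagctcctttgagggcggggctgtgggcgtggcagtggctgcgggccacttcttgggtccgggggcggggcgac
Rel: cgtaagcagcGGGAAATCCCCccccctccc
Nfkb2: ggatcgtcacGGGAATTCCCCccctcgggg

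The *Nfkbia* stretch is chr12:55492648-55492767 on the minus strand, and its match lies at positions -29 to -20, where -1 is the base just before the start. The *Nfkbie* stretch is chr17:45555580-45555699 on the plus strand, with the match at -106 to -97. The *Rel* stretch is chr11:23771042-23771071 on the minus strand, with its matches between -92 and -82. The *Nfkb2* stretch is chr19:46304688-46304717 on the plus strand, with its matches between -39 and -29 of the first of 3 RefSeq starts, and a further match, outside the letters shown, lies at -11 to -2. The later starts of *Nfkb2* also have a match each, at -236 to -227 and at -225 to -216, which are not shown. GENCODE M21 annotates an earlier start of *Nfkb2*, so the *Nfkb2* stretch shown lies in its 5′ untranslated region. A match is a description of the letters and not a site of binding, which was not measured in these data. On the scale of the log2 ratios below, genes with a match lay between -0.33 and 0.84 and those without between -0.42 and 0.94. *Relb*, *Nfkb1* and *Nfkbiz*, which had no promoter entry, are in neither range.

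Depth was 13799264 reads for the control and 12305010 for the RV-Cre library. The 10 genes took 34186 and 30725 of them, or 0.248% and 0.25%. Values below are given for the control first and the RV-Cre library second. Counts were scaled with TMM factors (1.06 and 0.941) and compared as log2(normalized count + 1), RV-Cre minus control. A gene was called when the libraries differed by a factor of 2 or more and either of them reached a log2 value of 4. Brackets hold exact 95% intervals (Clopper-Pearson, and conditional for odds ratios), which take in the error of counting reads and no biological variation. *Ptk2*, the gene of FAK, went from 110 to 31 reads, which is a ratio of 0.318 (0.206 to 0.477). The kit carries the name of a 3′-end method, and which part of a transcript its reads covered is not given, so this does not check the deletion itself. Genes with fewer reads were called more often, so the background is also given for 6276 abundant genes, whose mean log2 value was 8 or more, a class that holds 9 of the 10 genes, all but *Rel*. All 10 passed the expression minimum, with from 163 to 16575 reads.

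*Relb* was the 1 gene of the 10 called lower in RV-Cre cells, and 0 were called higher, and with 4 of 7 other scalings *Relb* was not called. The background was 12.3% lower and 14.2% higher among the 12112 genes past the minimum, and 7.60% lower and 3.74% higher among the abundant genes, so the share of called members was near the background. At a ratio of 1.5, 2 genes were lower (*Relb* and *Nfkb1*) and 3 were higher (*Nfkbie*, *Nfkbiz* and *Bcl3*). There the background was 22.9% lower and 23.5% higher among all genes, and 19.0% and 12.1% among abundant genes. The median log2 ratio was 0.07 over the 10 genes, against -0.01 over all genes past the minimum and -0.07 over the abundant ones. By class, it was -0.33 for the 5 subunits, 3 of which were below 0 (2 with *Gapdh* scaling, described further on), and 0.84 for the 5 IκB proteins, 4 of which were above 0 (5 with *Gapdh* scaling).

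**Figure D1:**
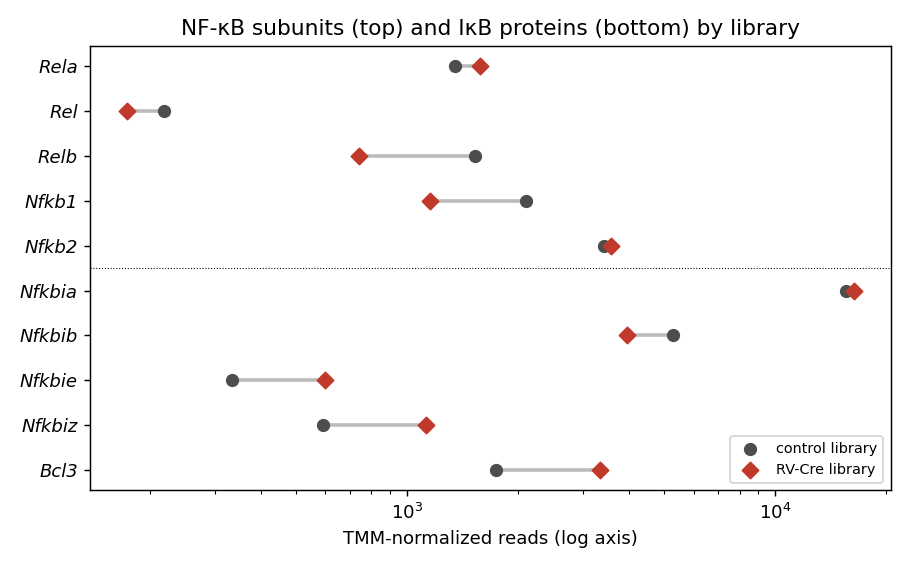
TMM-normalized reads of each gene (log axis) in the control library (circles) and the RV-Cre library (diamonds), with 1 library each. *Relb* and *Nfkb1* lie to the left of their control value and *Nfkbie*, *Nfkbiz* and *Bcl3* to the right, while *Nfkbia* and *Nfkb2* nearly coincide.

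Among the subunits of the canonical route, *Rela*, whose protein RelA is the main transactivating partner of p50, had 1437 and 1486 reads. Its ratio was 1.17 (1.08 to 1.26) and its log2 ratio 0.22. The *Rela* gene lies at chr19:5637483-5648130 on the plus strand and overlaps no other annotated gene. *Nfkb1*, which encodes p105 and its product p50, had 2240 and 1087 reads. Its ratio was 0.548 (0.509 to 0.589) and its log2 ratio -0.87, outside counting error and short of the 2-fold threshold. The gene lies at chr3:135584655-135691547 on the minus strand, and the single gene that overlaps it shares no exon with it. *Rel*, which encodes c-Rel, the subunit most tied to T cell activation and IL-2 expression, had the fewest reads of the family, 232 and 163. Its ratio of 0.793 had the widest interval for its size (0.645 to 0.973), which came close to 1, and its log2 ratio was -0.33. It lies at chr11:23736847-23770970 on the minus strand.

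In the noncanonical pair, *Relb* had 1624 and 698 reads. Its ratio was 0.485 (0.443 to 0.530) and its log2 ratio -1.04, so that its interval reached across the 2-fold line. *Relb* lies at chr7:19606217-19629438 on the minus strand and overlaps no annotated gene. *Nfkb2*, which encodes p100, the partner that holds RelB in the cytosol until it is processed to p52, had 3637 and 3379 reads. Its ratio was 1.05 with a lower bound of 1.0002 and an upper bound of 1.10. In this pair the RelB transcript was about 2-fold lower and that of its partner nearly level. *Nfkb2* lies at chr19:46304320-46312385 on the plus strand, and its exons overlap those of *AC114539.1* and of *Psd* on the other strand, the latter with 368 and 473 reads. Whether strand was used in counting is not given, and reads of such a pair may then not be told apart.

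Of the classical IκB proteins, *Nfkbia* was the most abundant transcript of the family. It encodes IκBα, the inhibitor that is degraded and made again with each round of NF-κB activation. It had 16575 and 15428 reads, a ratio of 1.05 (1.03 to 1.07) and a log2 ratio of 0.07. The gene lies at chr12:55489410-55492647 on the minus strand with no overlapping gene. *Nfkbib*, which encodes the more slowly turned over IκBβ, had 5608 and 3722 reads, a ratio of 0.749 (0.718 to 0.781) and a log2 ratio of -0.42. It was the 1 IκB gene of the 5 below 0, and with *Gapdh* scaling it was at 0.001. It lies at chr7:28758251-28767512 on the minus strand, and its exons overlap those of *Sirt2*, with 765 and 490 reads, and *Ccer2* on the other strand. *Nfkbie*, which encodes IκBε, had 355 and 563 reads, a ratio of 1.79 (1.56 to 2.05) and a log2 ratio of 0.84. It lies at chr17:45555703-45563169 on the plus strand and overlaps no gene. The 3 classical inhibitors differed from each other by more than counting error in quotients of reads, where any 1 factor per library cancels. Per *Nfkbia* read there were 0.338 and 0.241 *Nfkbib* reads (odds ratio 0.713, 0.680 to 0.747), and 0.0214 and 0.0365 *Nfkbie* reads (odds ratio 1.70, 1.49 to 1.95).

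The nuclear IκB proteins *Nfkbiz* and *Bcl3* had ratios close to each other. *Nfkbiz* had 627 and 1060 reads, a ratio of 1.91 (1.73 to 2.11) and a log2 ratio of 0.93. It lies at chr16:55811375-55838899 on the minus strand and overlaps no gene. *Bcl3*, whose product binds p50 and p52 homodimers, had 1851 and 3139 reads, a ratio of 1.91 (1.81 to 2.03) and a log2 ratio of 0.94. It lies at chr7:19808462-19822770 on the minus strand, and its exons overlap those of *Gm16175* on the other strand. Among the abundant genes, 4.49% had a log2 ratio at or above that of *Bcl3*, 4.62% at or above that of *Nfkbiz* and 5.94% at or above that of *Nfkbie*. At the other end, 6.85% of them had a log2 ratio below that of *Relb* and 10.4% below that of *Nfkb1*.

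**Figure D2:**
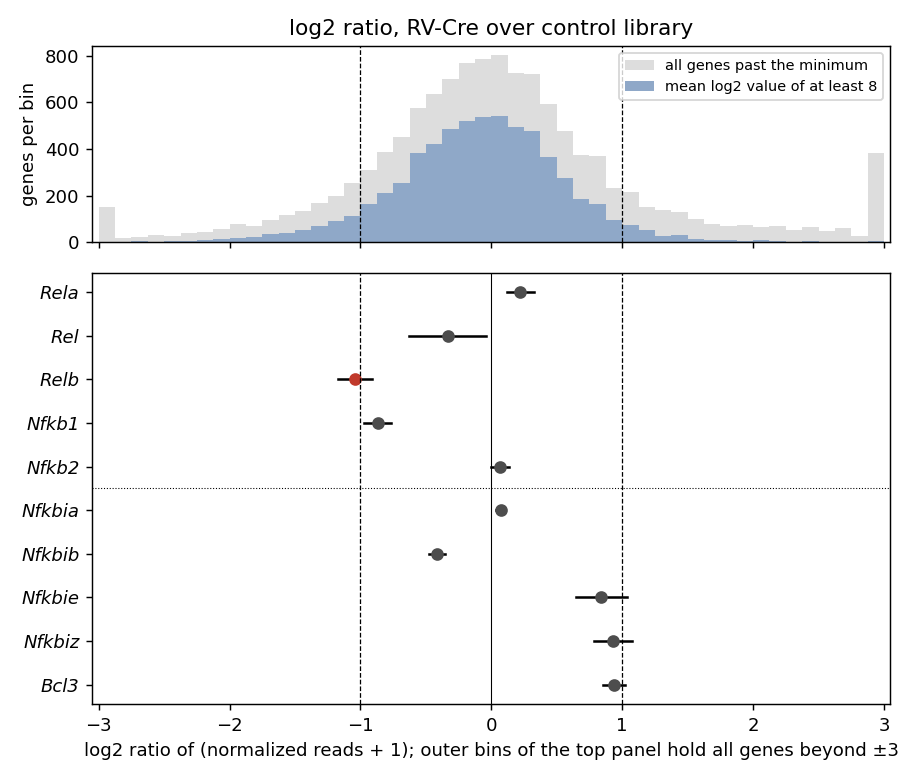
The upper panel gives the number of genes per bin of log2 ratio (RV-Cre over control) for the genes past the minimum and for those with a mean log2 value of at least 8. The lower panel gives each member's log2 ratio with its 95% counting interval, dashed lines at 2-fold and the called gene, *Relb*, in red at -1.04.

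Scaling between the libraries bears on each of these ratios. With 7 other scalings, *Relb* and *Nfkb1* had log2 ratios below 0 and *Rela*, *Nfkb2*, *Nfkbia*, *Nfkbie*, *Nfkbiz* and *Bcl3* above 0 in each. *Rel* and *Nfkbib* were below 0 in all but scaling to *Gapdh*, where they were at 0.08 and 0.001. *Relb* was at -0.94 with quantile normalization, -0.95 with loess normalization and -0.95 with totals taken without *Rn45s*, a gene of ribosomal RNA, that is, no longer called. *Rn45s* took 8.50% of reads in the control and 14.6% in the RV-Cre library, and its part in these values, beyond that scaling, was not tested. With the same 3 scalings *Nfkbiz* (1.03, 1.02 and 1.02) and *Bcl3* (1.04, 1.05 and 1.03) passed 2-fold. *Gapdh* had 956 and 634 reads, and scaling to it moved the median log2 ratio of all genes from -0.01 to 0.43 and the share of higher genes among those called from 53.6% to 79.1%. Under it *Relb* was at -0.63, *Nfkb1* at -0.45 and *Bcl3* at 1.35, and relative to that median they were at -1.05, -0.88 and 0.93.

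**Figure D3:**
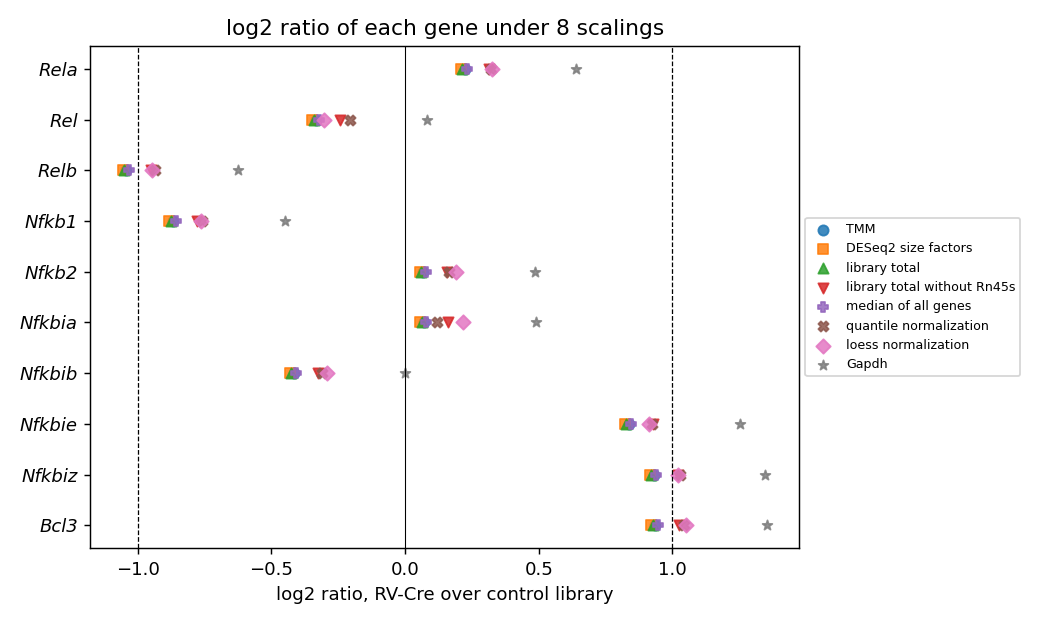
Log2 ratio (RV-Cre over control) of each gene under TMM and 7 other scalings, with dashed lines at 2-fold. Each gene's points move together, *Gapdh* scaling lies farthest to the right, and *Rel* and *Nfkbib* are the genes whose points fall on both sides of 0.

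Quotients of reads within a library do not depend on scaling by 1 factor per library. They were taken from raw reads and not from quantile or loess values. In the control library there were 25016 reads of the IκB genes and 9170 of the subunits, or 2.73 IκB reads per subunit read (2.66 to 2.79). In the RV-Cre library there were 23912 and 6813, or 3.51 (3.42 to 3.61). The quotient was thus 1.29 times as high in the RV-Cre library (95% interval of the odds ratio 1.24 to 1.33). It was 1.35 times as high without *Nfkbia*, which held most of the IκB reads, 1.18 times with the 3 classical inhibitors alone and 1.36 times without the 4 genes that overlap another gene. Counted per kilobase of transcript it was 1.28 times as high. Most of the drop in subunit reads, from 9170 to 6813, lay in *Nfkb1* (2240 and 1087 reads) and *Relb* (1624 and 698). *Rela* (1437 and 1486) and *Nfkb2* (3637 and 3379) differed little. The higher quotient is thus not a shift against the subunits as a class. *Relb* was among the subunits in each of these sums, and *Nfkb1* in all but the one without overlapping genes. A quotient without both *Relb* and *Nfkb1* was not computed.

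The make-up of each class differed as well. *Nfkb2* was the largest part of the subunit reads, at 39.7% (38.7 to 40.7) in the control and 49.6% (48.4 to 50.8) in the RV-Cre library. *Nfkb1* came next in the control library with 24.4% (23.6 to 25.3) and had 16.0% (15.1 to 16.8) in the RV-Cre library. *Rela* came next there, with 21.8% (20.8 to 22.8) against 15.7% (14.9 to 16.4) in the control. *Relb* made up 17.7% (16.9 to 18.5) and 10.2% (9.53 to 11.0). *Rel* had 2.53% (2.22 to 2.87) and 2.39% (2.04 to 2.78), intervals that overlap. Of the IκB reads, *Nfkbia* held 66.3% (65.7 to 66.8) and 64.5% (63.9 to 65.1), and *Nfkbib* 22.4% (21.9 to 22.9) and 15.6% (15.1 to 16.0). *Bcl3* went from 7.40% (7.08 to 7.73) of them to 13.1% (12.7 to 13.6), and *Nfkbiz* and *Nfkbie* from 2.51% and 1.42% to 4.43% and 2.35%.

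**Figure D4:**
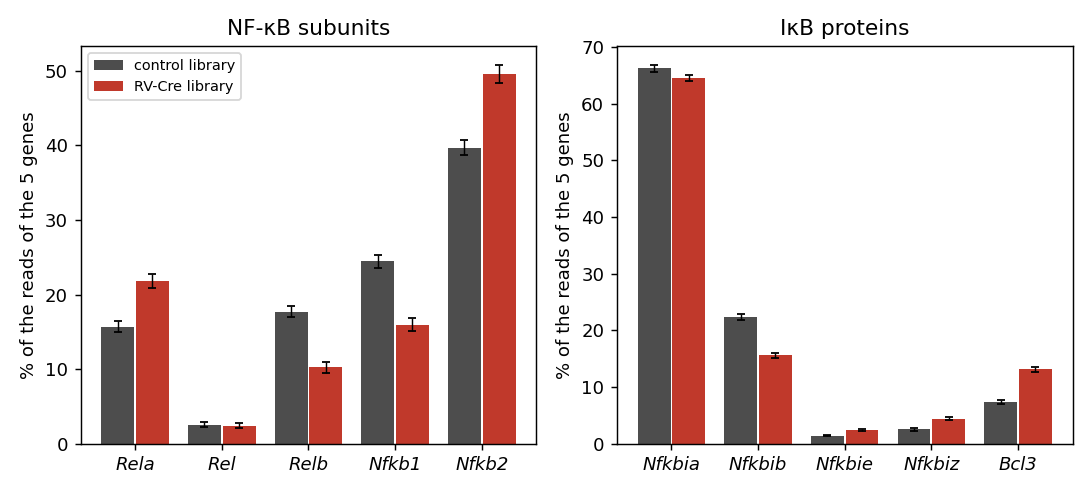
Share of each gene in the reads of the 5 subunits (left) and of the 5 IκB genes (right), in percent, in the control and RV-Cre libraries. Error bars are exact binomial 95% intervals. *Nfkb2* and *Nfkbia* are the largest parts, and *Relb*, *Nfkb1* and *Nfkbib* have lower shares in the RV-Cre library.

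Pairs of partners, chosen like the pairs of classical inhibitors after their values were seen, were compared in the same way within a library. There were 1.56 *Nfkb1* reads per *Rela* read in control cells and 0.731 after RV-Cre, so that the gene with more reads was *Nfkb1* in the former and *Rela* in the latter (odds ratio 0.469, 0.423 to 0.521). There were 0.447 and 0.207 *Relb* reads per *Nfkb2* read (odds ratio 0.463, 0.418 to 0.512). *Bcl3* reads per *Nfkb1* read, the nuclear partner against the gene of p50, numbered 0.826 and 2.89 (odds ratio 3.49, 3.18 to 3.84). *Nfkbia* reads per *Rela* read, the inhibitor against its main target, differed least of these, at 11.5 and 10.4 (odds ratio 0.900, 0.834 to 0.972). *Nfkbib* reads per *Rela* read numbered 3.90 and 2.50 (odds ratio 0.642, 0.590 to 0.698). *Nfkbie* reads per *Rel* read went the other way, at 1.53 and 3.45 (odds ratio 2.26, 1.76 to 2.89).

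Levels were compared between genes as CPM (counts scaled to equal library totals) per kilobase of the longest principal coding transcript in GENCODE M21. If the kit was the 3′-end one, counts need not grow with transcript length, and this order then depends on the division. On this scale *Nfkbia* was highest in both libraries, at 761 and 795, and *Nfkbib* was next, at 197 and 147. In the control library *Nfkb2* (83.9), *Bcl3* (72.5), *Relb* (53.3), *Nfkb1* (39.4), *Rela* (38.3), *Nfkbiz* (11.0), *Nfkbie* (10.6) and *Rel* (2.25) followed in that order. The counting intervals of *Nfkb1* and *Rela* overlapped, as did those of *Nfkbiz* and *Nfkbie*. In the RV-Cre library the order after *Nfkbib* was *Bcl3* (138), *Nfkb2* (87.4), *Rela* (44.5), *Relb* (25.7), *Nfkb1* (21.5), *Nfkbiz* (20.9), *Nfkbie* (18.8) and *Rel* (1.77). There the intervals of *Nfkbib* and *Bcl3* overlapped, as did those of *Nfkb1* and *Nfkbiz* and those of *Nfkbiz* and *Nfkbie*. *Rela* stood ahead of *Relb* and *Nfkb1* there, unlike in the control library, and did so in reads not divided by length too. *Bcl3* stood ahead of *Nfkb2* only after the division, since *Nfkb2* had 3379 reads and *Bcl3* 3139.

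The pathway around the family was followed with 7 lists of 74 genes, of which 73 passed the minimum, 8 were called higher and 10 lower. Those shares were 11.0% and 13.7%, against 14.2% and 12.3% of all genes past the minimum and 3.74% and 7.60% of abundant genes. The shares among the abundant genes of the lists alone were not computed. Single lists hold from 4 to 24 genes, so the share of each rests on few genes. Of the 11 genes of the IκB kinase complex and upstream kinases, 2 were called higher and 0 lower, with a median log2 ratio of 0.24. They were *Map3k14*, the gene of NIK, which starts the noncanonical route, with 342 and 692 reads and a ratio of 2.28 (2.00 to 2.61), and *Ikbke*, which encodes the related kinase IKKε, with 177 and 414 reads and a ratio of 2.64 (2.21 to 3.17). Exons of both overlap those of another gene. The most abundant of the others, *Tab2*, an adaptor of the kinase TAK1, and *Ikbkb*, the catalytic subunit IKKβ, had log2 ratios of -0.29 and 0.62. Of the 4 genes that link the T cell receptor to the pathway, *Prkcq*, the gene of protein kinase C theta, was called higher, with 486 and 1044 reads and a ratio of 2.42 (2.17 to 2.71). *Malt1*, the protease of the same route, had 2253 and 2216 reads, and *Bcl10*, its partner, 570 and 494.

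Of the 12 TRAF, IAP and MyD88 adaptors, 1 was called higher and 1 lower, or 8.33% each. The shares over all genes past the minimum were 14.2% higher and 12.3% lower. *Irak4*, a kinase of IL-1 receptor signalling, was called higher with 258 and 584 reads and a ratio of 2.55 (2.2 to 2.97). Its exons overlap those of another gene. *Birc3*, a ubiquitin ligase that keeps NIK low and is itself an NF-κB target, was called lower with 957 and 310 reads and a ratio of 0.366 (0.321 to 0.416). *Myd88* and *Irak1*, the most abundant of the rest, had log2 ratios of -0.52 and 0.38. Among the 12 receptors, 3 were called higher (25.0%) and 1 lower (8.33%). The higher ones were *Tnfrsf18* (1884 and 5285 reads), *Cd27* (583 and 1560 reads) and *Tnfrsf11a* (0 and 26 reads). Exons of the first pair overlap those of another gene. The count of 0 allows up to 3 reads, so *Tnfrsf11a*, the gene of RANK, was at least 9.78-fold higher with the 26 reads taken as exact, while its exact interval began at a ratio of 7.40. *Il1r1*, the receptor for the IL-1β given to the cultures, was called lower with 88 and 24 reads and a ratio of 0.308 (0.187 to 0.488). *Tnfrsf4* and *Cd28*, the most abundant receptors, had log2 ratios of 0.42 and 0.26.

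Of the 9 brakes on the pathway, *Tnfaip3* and *Commd1* were called lower (22.2%) and 0 were called higher. The shares over all genes past the minimum were 12.3% lower and 14.2% higher. *Tnfaip3*, which encodes the ubiquitin-editing enzyme A20, had 363 and 96 reads and a ratio of 0.298 (0.236 to 0.375). *Commd1*, which promotes the breakdown of RelA, had 411 and 146 reads and a ratio of 0.401 (0.330 to 0.485), and its exons overlap those of another gene. *Cyld*, a deubiquitinase, and *Tnip1*, a partner of A20, had log2 ratios of 0.05 and 0.08. Of the 6 other IκB-like and NF-κB-binding proteins, 0 were called in either direction, and *Nkiras1*, a Ras-like protein that binds IκB, and *Nfkbid*, a further nuclear IκB protein, had log2 ratios of 0.38 and 0.35.

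Of the 24 genes listed as known NF-κB targets, 23 passed the minimum, 8 were called lower and 1 higher, with a median log2 ratio of -0.45. These were 34.8% and 4.35%, against 12.3% and 14.2% of all genes and 7.60% and 3.74% of abundant ones, and with *Gapdh* scaling 6 were lower and 3 higher, with a median of -0.04. *Csf2*, the gene of GM-CSF, was listed at 0 in both libraries. *Lta*, the gene of lymphotoxin alpha, had 4667 and 472 reads and a ratio of 0.114 (0.104 to 0.125). *Myc*, the growth regulator, had 1678 and 315 reads and a ratio of 0.212 (0.187 to 0.239). *Tnf* had 1787 and 686 reads, *Il2* 602 and 254, *Ccl20*, a chemokine, 88 and 4, and *Il17a* 424 and 103, and *Birc3* and *Tnfaip3*, described above, complete the lower genes. *Ier3*, an early response gene, was called higher with 445 and 1031 reads and a ratio of 2.61 (2.34 to 2.93). The abundant *Il2ra* and *Irf4* had log2 ratios of -0.44 and -0.51. The members with a κB match shown above had log2 ratios of -0.33 (*Rel*), 0.07 (*Nfkbia*), 0.07 (*Nfkb2*) and 0.84 (*Nfkbie*). The list holds genes that earlier work on these libraries had shown to be lower, so its count is not independent evidence of a direction.

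**Figure D5:**
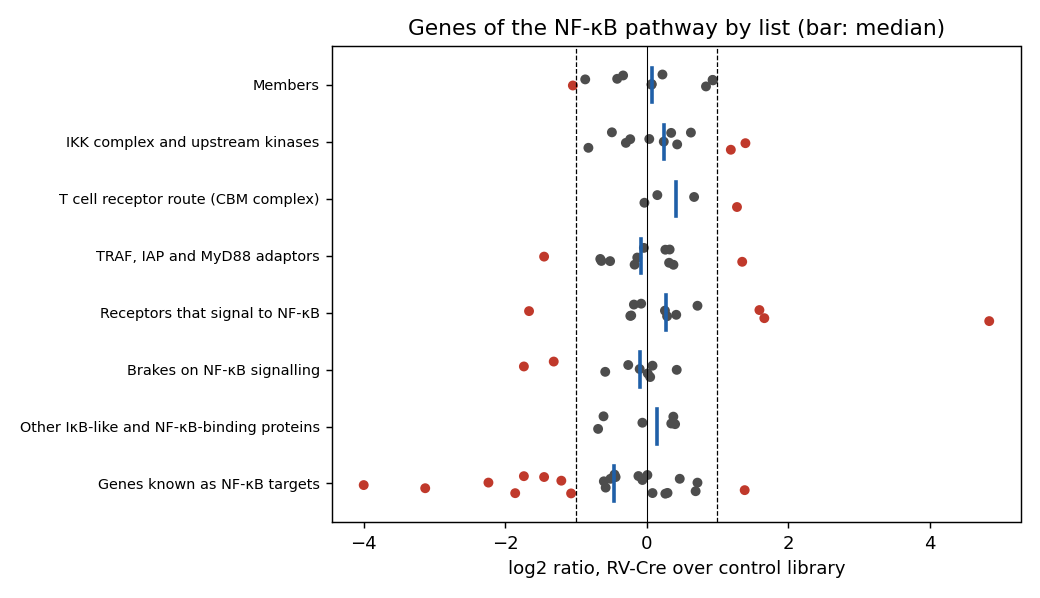
Log2 ratio (RV-Cre over control) of each gene past the minimum in the family and in 7 pathway lists. Red points are at least 2-fold apart, blue bars are medians and dashed lines mark 2-fold. The list of known targets has 8 red points on the left and 1 on the right.

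The cells were checked against markers of their type. All 5 CD4 T cell markers with a row (*Cd3e*, *Cd3g*, *Cd3d*, *Cd4* and *Lck*) were present, at 890 and 1405 CPM in sum, and 2 of them, *Cd3e* and *Cd3d*, were called higher. Of the Th17 markers, *Il17a*, given above, and *Il17f* (421 and 79 reads) were called lower, while *Ccr6* had 601 and 313 reads and *Il23r* 9 and 10. In these bulk libraries, fewer Th17 cells and less RNA per cell cannot be told apart, for the NF-κB genes as well. B cells and dendritic cells are rich in *Relb* and *Nfkb2*. The 5 B cell markers had 42 and 108 reads in sum, 3.04 and 8.78 CPM, with *Pax5* at 0 in both libraries. The 7 myeloid and dendritic cell markers had 108 and 164 reads in sum, with *Adgre1* at 0 in the control library. They went both ways, 3 with a log2 ratio above 0 and 4 below. *Csf1r* (16 and 110 reads) was called higher, and *Itgax* (27 and 1) and *Lyz2* (22 and 7) were called lower. Of the other lists, CD8 T cell markers summed to 444 and 854 reads, erythroid markers to 33 and 181, and NK cell markers to 12 and 8, with *Klra8* at 0 in both libraries, *Ncr1* at 0 in the control library and *Klrb1c* at 0 in the RV-Cre library. These markers moved with the comparison, and their part in the values of the NF-κB family was not tested.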

How the data were processed

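The authors deposited raw counts, the reads counted per gene symbol in 1 control and 1 RV-Cre library, without normalization. Per the labels, libraries were made with a QuantSeq kit from 500 ng of total RNA. The submitters' processing notes name bcl2fastq 2.20.0.422, Bowtie2 and bedtools and the build mm10 (GRCm38). Their roles, the annotation and any filter or use of strand are not given in the sources used here.

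From these counts, TMM factors were computed with edgeR 4.0.16 in R 4.3.3 over all gene rows, with a pseudocount of 1, a minimum of 15 normalized reads (log2 value of 4) in at least 1 library and a threshold of 2-fold. The 95% intervals (scipy 1.17.1) of ratios, shares and quotients are exact Clopper-Pearson intervals of a split of reads. Those of odds ratios are exact conditional intervals, and those of levels per kilobase are exact Poisson intervals. Reads are not independent molecules, so these intervals, like the 3 reads allowed where none was counted, hold the error of counting alone. With 1 library per group no test was run. The procedure was tested on simulated data that held counting error alone and changes well beyond 2-fold. That test could not show how calls behave near 2-fold or with variation between libraries. Positions and overlaps came from GENCODE M21 (GRCm38) and promoters from RefSeq (GRCm38.p6). Groups followed the sample titles.

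The members, lists and alternatives were chosen with earlier results of these data known. Named were the 10 members, *Ptk2*, and of each list the called genes and the 2 others with most reads, while markers came from lists (1 Th17 marker is not reported here) and overlapping genes from the annotation, and any other gene was chosen after its values were seen. The list median with genes at 0 set to their bound equalled the plain median in all 7 lists. The 79 rows that share a symbol held no listed gene. Alternatives were DESeq2 1.42.0 size factors, library totals with and without *Rn45s*, the median of all genes, quantile and loess normalization (limma 3.58.1), *Gapdh*, pseudocounts of 0.1 and 10, other minimums and fold thresholds, and other sums of IκB genes.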

Additional observations from a re-analysis of the deposited data

How the results depend on the processing

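No paired analysis was possible because there was only 1 library in each group, and leaving a library out would have left no comparison. The cause of the shifts was not tested.

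With library totals without *Rn45s*, quantile or loess normalization, 2 members were called higher (*Nfkbiz* and *Bcl3*) and 0 lower, against 0 and 1 with TMM. With *Gapdh* scaling 3 members were higher and 0 lower, and with a fold threshold of 3, 0 were lower. With TMM factors, all 10 intervals excluded a ratio of 1 at 95%, and 8 at 99%, without *Rel* and *Nfkb2*. The 95% interval of *Nfkb2* began at 1.0002. Its log2 ratio was lower with DESeq2 size factors (0.054) and library totals (0.059) than with TMM (0.068). The count of 10 thus hangs on the scaling and was not repeated with others. The share of all genes whose interval excluded 1 was not computed, so these counts cannot be set against a background. Over all genes, 1720 were higher and 1491 lower. *Gapdh* scaling gave 2960 and 780, no expression minimum 3265 and 2441, a fold threshold of 1.5 2847 and 2777, and a threshold of 3 1008 and 669. Genes called lower outnumbered those higher with a log2 minimum of 6 (734 higher, 1067 lower), a minimum of 4 in both libraries (758 and 1097), quantile (1511 and 1615) and loess normalization (1509 and 1600). Of the genes of the 7 lists, *Gapdh* scaling put 13 higher, a threshold of 1.5 put 13 higher and 17 lower, and a threshold of 3 put 3 and 6. The quotient of IκB over subunit reads in RV-Cre against control stayed above 1, at 1.35 without *Nfkbia*, 1.18 with classical inhibitors alone and 1.36 without overlapping genes. *Relb* was part of the subunit reads in all of these, and *Nfkb1* in all but the last, so they do not show a shift against every subunit.

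Of the members' 70 log2 ratios under the 7 other scalings, 24 left the counting interval of the TMM value, 10 of them with *Gapdh*, 5 with quantile, 5 with loess and 4 without *Rn45s*. Among the members, *Rel* had the fewest reads.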
